A study of Mus musculus with 8 samples.

Results

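Genes of the fibroblast growth factor (FGF) family were measured in medial prefrontal cortex (mPFC) after maternal separation (MS), in males of the inbred C3H/HeN strain. The family was chosen by gene name: probes for FGF ligands, the FGF receptors and the receptor-like Fgfrl1, the coreceptors Kl and Klb, the FGF-binding proteins and the FLRT proteins, which made 34 genes and 58 probes of 34797 gene names and 55681 probes on the array. It was proposed with the MS minus control values of these same arrays known, that of Fgf5 among them, so the values below describe the members and test nothing about them. One single-colour Agilent array was hybridised per animal, for 4 MS mice and 4 control mice. MS pups were taken from a dam that was itself exposed to unpredictable stress, from postnatal day 2 to postnatal day 14, so that separation and stress of the dam cannot be told apart, and control pups were not. All animals were weaned on postnatal day 21 and were killed as adults after operant tests for palatable food and a fast. The tissue was whole, so that fewer cells of a type and less RNA per cell cannot be told apart. Each animal is called by its group and its label number.

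Most FGFs are secreted, are held near the cell surface by heparan sulfate chains, and bind receptor tyrosine kinases that signal through Ras and the ERK kinases. A few circulate as hormones and need klotho proteins as coreceptors. The intracellular FGFs are not secreted and instead bind voltage-gated sodium channels. In the brain FGFs are known for patterning the forebrain, for growth of neural precursors and for the organisation of synapses. FLRT proteins are adhesion molecules of the cell surface that bind latrophilins and Unc5 receptors, and they are also known to interact with FGF receptors.

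Each value came from a 60-base probe, and the letters of a few probes are shown to identify what was read for the members described most closely below. Positions are those of the file headers on build mm9. The single probe for Fgf5 lies on the plus strand at chr5:98705980-98706039, and that for Fgf7 on the plus strand at chr2:125916134-125916193. Their last 30 bases are printed with the letters of the polyadenylation signal AATAAA, or of its common variant ATTAAA, in capitals. Whether these letters act as a signal there was not tested.
Fgf5: ttatattcctaaatgctgcAATAAAgaggc
Fgf7: cctctgtgattacagcATTAAActctactt
AATAAA was present on the probe strand in 5 of the 58 member probes (8.62%), against 10.06% of all 55681 probes, and ATTAAA in 6 (10.3%), against 3.95% of all probes.

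Fgf23 was read by a pair of plus-strand probes, of which the bright one at chr6:127030758-127030817 starts with a run of the dinucleotide CA, in capitals, and the dim one at chr6:127031289-127031348 does not. The first 30 bases of each are shown.
Fgf23 bright probe: cCACACACACACACACACACAtacatgtaa
Fgf23 dim probe: tttagtgaaagcctccgctagcaggttgac
CA was repeated at least 10 times in 22 of all 55681 probes, this one included, and each of the 22 was well above background on all 8 arrays, where 58.7% of all probes were. The bright Fgf23 probe was well above background on all 8 arrays too, and the dim one on 2 MS and 2 control arrays. The part of the repeat in the signal of the bright probe was not tested.

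For Fgf2 and Fgf12, probes that span an intron by their coordinates are shown whole, since only spliced RNA joins their parts. The Fgf2 probe runs on the plus strand over chr3:37247934-37295153 and the Fgf12 probe on the minus strand over chr16:28189673-28373012. Of the 58 member probes, 5 spanned more than 60 bases in this way. Exon and UTR positions of the other probes were not analysed here.
Fgf2: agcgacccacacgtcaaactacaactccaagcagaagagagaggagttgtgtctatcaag
Fgf12: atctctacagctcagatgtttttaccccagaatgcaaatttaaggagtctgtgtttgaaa

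Levels are given as the log2 signal over the array's own 75th percentile, so 0 is that percentile, and a level says nothing against that of another probe. Of the 34 genes, 26 had a probe that was well above background throughout 1 or both groups (4 of 4 arrays), and the brightest such probe stood for the gene. For 24 of these 26 (92.3%), the 95% confidence interval of the log2 difference, MS minus control, included 0. Fgf5 and Fgf7 were the exceptions. Of all tested genes, 98.1% had an interval that included 0. The member differences had a median of -0.01 and ran from -0.33 to 0.44, with 13 higher and 13 lower in MS, where all 23461 genes had a median of 0.01 and 54.5% of them were higher. The size of the difference had a median of 0.0929 for the members and 0.0769 for all genes, and the median SD between animals of a group was 0.163 and 0.162. No member and no gene of the 23461 (0%) passed the threshold in limma (adjusted p of 0.05, Benjamini-Hochberg), while 453 genes had an unadjusted p under 0.05. All 4 MS values lay above all 4 control values for 1 member, Fgf5, and for 0.801% of all genes, and all 4 lay below for 0 members and 0.524% of all genes.

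**Figure D1:**
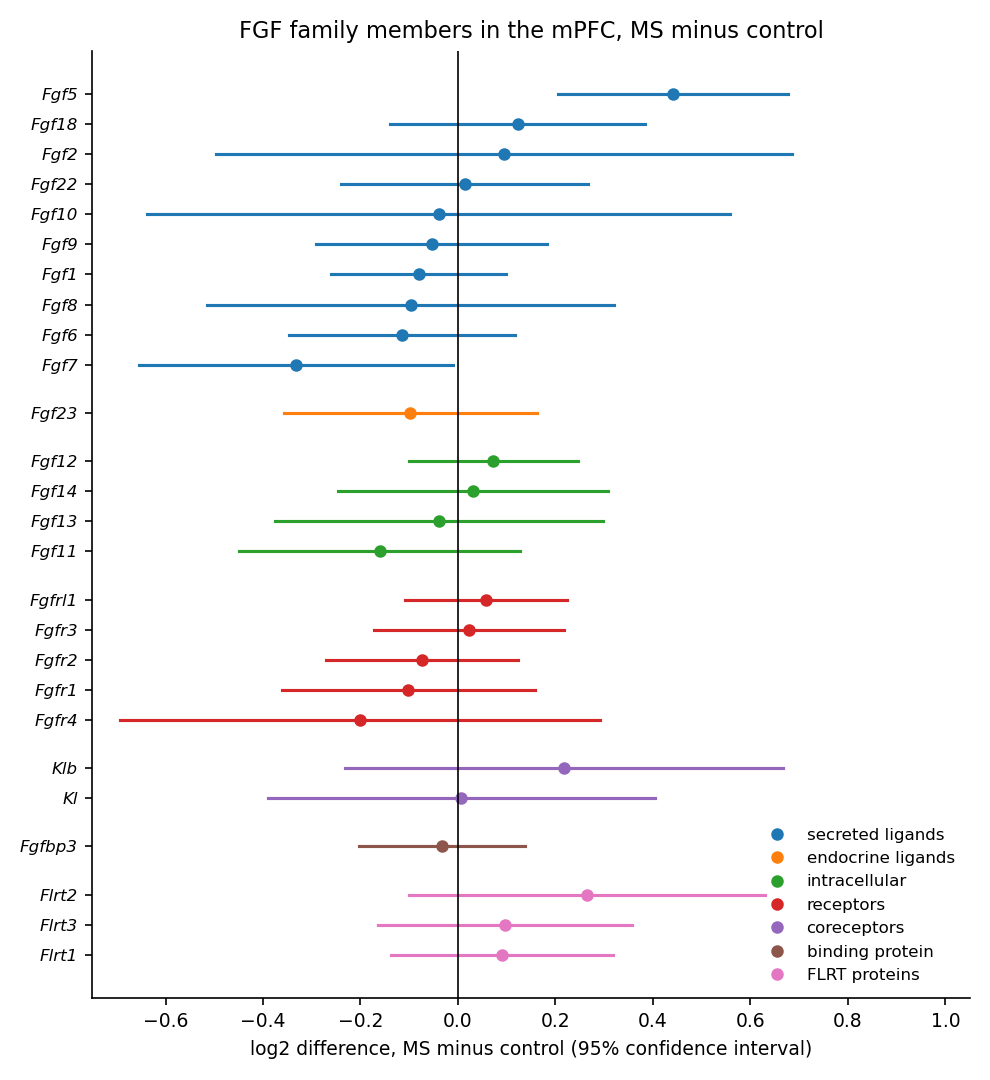
Log2 difference of each of the 26 tested members on the x axis (MS minus control, n = 4 each), where a point is the estimate and its line the 95% confidence interval from limma, coloured by role. The lines of Fgf5 (0.44) and Fgf7 (-0.33) do not cross 0, and the other 24 do.

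Among the arrays, the share of probes well above background was 61.5% to 68.9%, the signal at the 75th percentile was 588 to 892.4, and no spot was saturated. Control 8.4 stood apart. Its median correlation with the other arrays was 0.984, against 0.986 to 0.99 for the other 7. The score of 11 olfactory bulb markers (mean log2 level relative to the mean of the 8 arrays) was 1.03 in MS 7.6 and -0.85 to -0.59 in the other MS mice, and it was 1.99 in control 8.4, 0.64 in control 8.5 and -0.74 and -0.72 in the remaining controls. The summed signal of these markers, in units of the 75th percentile, was 17.5 to 51.8 in MS mice and 17.1 to 105.7 in controls. The striatal score over 12 markers was -0.26 to -0.06 in MS mice, 1.09 in control 8.4 and -0.21 to -0.08 in the other controls. The score of 11 cortex markers was -0.04 to 0.15 in MS mice, -0.23 in control 8.4 and -0.07 to 0.13 in the other controls. These lists did not move as one in control 8.4. Of the cortex markers, Bcl11b (2.54, against at most 2.25 elsewhere) and Foxp2 (-2.93, against at most -4.11) were the highest there. Tbr1 lay within the range of the other animals, and the remaining cortex markers were the lowest. Of the striatal markers, Pdyn was the lowest and Gnal lay within the range, as did the bulb markers Lhx1 and Uncx. The defining markers Eomes (bulb) and Isl1 (striatum) were not tested, being too near background. All 11 cortex markers, Slc17a7 and Tbr1 included, were bright enough to be tested. Between the groups, with control 8.4 included, every tested bulb marker had a lower mean in MS (log2 differences -0.97 to -0.14). The striatal differences ran from -0.86 to 0.05, with only Pdyn and Gnal higher in MS. The cortex markers were higher in MS (0.11 to 0.27), except Bcl11b (-0.14) and Foxp2 (-0.24). The part of tissue content in the member differences was not tested. Control 8.4 was the lowest animal for 7 and the highest for 5 of the 26 members. The other animals were the lowest for 2 to 4 and the highest for 1 to 5, with MS 5.3 also the highest for 5.

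Of the secreted ligands, Fgf5 had the largest difference. FGF5 is best known as the factor that ends the growth phase of hair. Its level was -1.93 in MS 5.3, -1.57 in MS 7.1, -1.73 in MS 7.2 and -1.68 in MS 7.6, against -2.11 in control 6.2, -2.02 in control 8.2, -2.32 in control 8.4 and -2.22 in control 8.5. The groups did not overlap, and the lowest MS animal lay just above the highest control. Fgf5 averaged -1.73 ± 0.15 in MS and -2.17 ± 0.13 in controls (SD, n = 4 each), a log2 difference of 0.44 (standard error 0.10, 95% confidence interval 0.20 to 0.68) and a ratio of 1.36. The probe, whose last bases are printed above, was well above background on all 8 arrays. The difference was 0.42 and 0.46 within each of the slide rows, which held 2 MS and 2 control arrays each, and 0.39 without control 8.4. Only 1 probe on the array read Fgf5, so no other probe could be set beside it.

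Fgf7, keratinocyte growth factor, was the member with the largest difference on the lower side. Its levels were -5.25, -4.92, -5.26 and -4.88 in MS 5.3, 7.1, 7.2 and 7.6, against -4.50, -5.03, -4.63 and -4.80 in control 6.2, 8.2, 8.4 and 8.5. Control 8.2 lay below MS 7.1 and MS 7.6, so the groups overlapped. The means were -5.07 ± 0.20 in MS and -4.74 ± 0.23 in controls (SD, n = 4 each), a log2 difference of -0.33 (standard error 0.14, interval -0.66 to -0.01). This dim probe was well above background on all 8 arrays, but its difference was -0.03 with normexp background correction and -0.11 in the authors' table. The normexp correction added an offset of 50, which makes log2 differences of dim probes smaller. The part of the offset in the value of -0.03 was not tested. The score of 12 meningeal markers, which include fibroblast genes, was -1.0, 0.46, -0.54 and 0.56 in the same MS mice and 0.32, 0.42, 0.43 and -0.66 in the same controls. Each of the 12 markers had a lower mean in MS (log2 differences -0.44 to -0.10). The MS mice with the lowest Fgf7 levels were those with the low meningeal scores, whereas control 8.5, with a low score, was not the lowest control. The part of meningeal tissue in this difference was not tested.

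**Figure D2:**
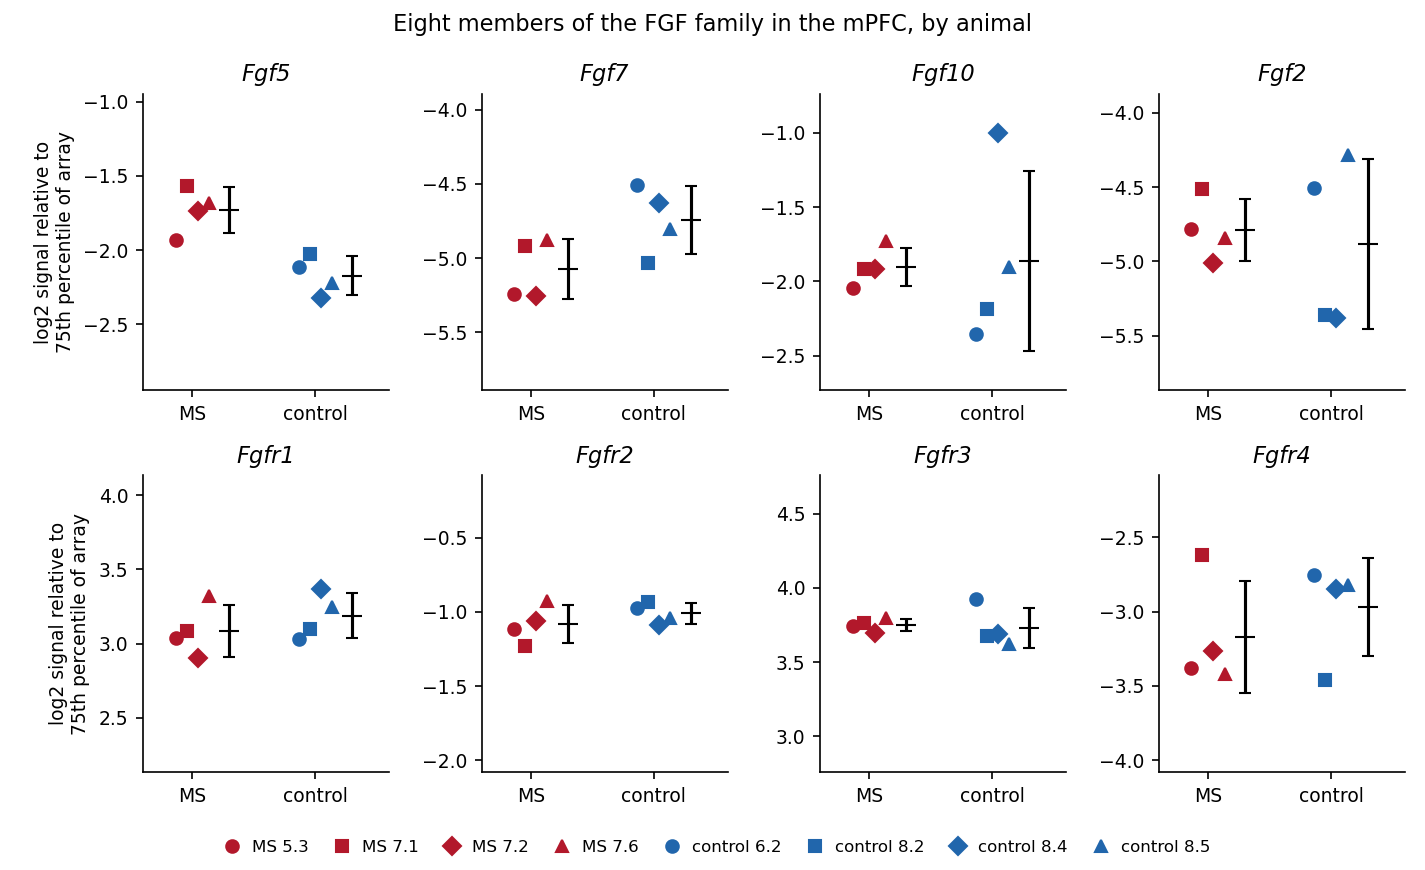
Level of 8 members in each animal (y axis, log2 signal relative to the 75th percentile of the array, 2 log2 units in every panel), with red symbols for the 4 MS mice, blue symbols for the 4 controls and black bars for mean ± SD. The groups are apart for Fgf5 and overlap for the other 7, and control 8.4 lies alone at the top for Fgf10 (-1.0).

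Fgf10, a ligand of limb and lung buds that is closely related to Fgf7, had the largest spread within groups of the 26 tested members (0.44 log2, pooled SD). Its levels were -2.05, -1.92, -1.92 and -1.73 in MS 5.3, 7.1, 7.2 and 7.6, against -2.36, -2.19, -1.0 and -1.90 in control 6.2, 8.2, 8.4 and 8.5. Control 8.4 lay above all other animals, control 6.2 and 8.2 lay below the MS mice, and control 8.5 lay among them. The log2 difference was -0.04 (standard error 0.26) over 8 animals and 0.25 without control 8.4.

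Fgf2, basic FGF, a growth factor of neural precursors that astrocytes also make, followed with a spread of 0.43. Its levels were -4.78, -4.51, -5.01 and -4.85 in MS 5.3, 7.1, 7.2 and 7.6, against -4.51, -5.36, -5.38 and -4.28 in control 6.2, 8.2, 8.4 and 8.5. All 4 arrays of one slide row (MS 5.3 and 7.1, control 6.2 and 8.5) lay above all 4 of the other, a split shown by 1 of the 26 members and by 5.49% of all genes. Within the rows the log2 differences were -0.25 and 0.44. The overall difference was 0.10 (standard error 0.26), and it was -0.07 without control 8.4. This intron-spanning probe was spotted 10 times on an array, with a median SD of 0.24 between spots, against 0.05 to 0.12 for the other 3 member probes with repeated spots.

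The 6 remaining secreted ligands that were tested, which were Fgf1, Fgf6, Fgf8, Fgf9, Fgf18 and Fgf22, had log2 differences from -0.11 to 0.12. Fgf22, which organises presynaptic terminals in the mouse hippocampus, averaged -1.87 ± 0.07 in MS and -1.89 ± 0.21 in controls (difference 0.01). Fgf9, a mitogen of glia, averaged 1.13 ± 0.14 in MS and 1.18 ± 0.15 in controls (-0.05). Fgf18, a ligand of bone and cartilage growth, averaged -1.13 ± 0.18 in MS and -1.26 ± 0.15 in controls (0.12), and its second probe, which shares 26 bases with the first, gave 0.00. Acidic FGF, Fgf1, averaged 3.83 ± 0.09 in MS and 3.91 ± 0.07 in controls (-0.08), and its second probe gave 0.07. All 6 confidence intervals included 0.

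Fgf8, the ligand that patterns the front of the forebrain, averaged -3.34 ± 0.35 in MS and -3.24 ± 0.23 in controls at its tested probe, a log2 difference of -0.10, or -0.00 without control 8.4. Of its other probes, one did not rise well above background on any of the arrays. The other lies upstream on the minus strand at chr19:45816855-45816914 and starts as printed here to identify it.
Fgf8 upstream probe: gcagcagggctggaaagaactttacaaatc
This probe was well above background on 1 array only, that of control 8.4. Its level was between -8.10 and -6.55 in the MS mice, -2.25 in control 8.4 and no higher than -7.40 in the remaining 3 controls. The tested Fgf8 probe did not show this step. Control 8.4 (-2.96) was the highest control there, but MS 7.1, also at -2.96, was the highest animal. The upstream probe had 1 spot per array. The high bulb and striatal scores of control 8.4 stand beside its value at the upstream probe, and their part in that value was not tested.

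Fgf6, a ligand of developing muscle, showed how far the reading of one gene can rest on one probe. Its brighter probe was well above background on all 8 arrays, at -1.96 ± 0.08 in MS and -1.85 ± 0.18 in controls, while the other was so only in MS 7.1. Fgf3, Fgf4, Fgf16, Fgf17 and Fgf20 were not tested, since none of their probes was well above background on all 4 arrays of a group. Fgf4, Fgf16 and Fgf20 did not reach this on any array, Fgf3 was so in 1 control and Fgf17 in 1 MS mouse. Fgf17, close to Fgf8 in sequence and in its forebrain role, was at -4.03 in MS 7.6, against -6.27 to -5.99 in the other MS mice and -7.25 to -6.17 in controls.

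Among the endocrine ligands, only Fgf23, a hormone of bone that lowers blood phosphate, had a tested probe, and this was the one with the CA run. Its levels overlapped, with 5.46 ± 0.10 in MS and 5.56 ± 0.21 in controls (log2 difference -0.10). Fgf21, a liver hormone of fasting, was not well above background in any animal. Fgf15, the mouse counterpart of human FGF19 that the gut releases in response to bile acids, was well above background in 3 MS mice and 1 control. Its levels were -5.21, -5.27, -5.37 and -6.51 in MS 5.3, 7.1, 7.2 and 7.6, against -6.39, -5.19, -6.90 and -6.15 in control 6.2, 8.2, 8.4 and 8.5. The highest value was that of control 8.2, and the groups overlapped. Mice of both groups were fasted before they were killed, by the study's methods. The paper names as a limit that fasting may change nucleus accumbens expression differently in MS mice. The part of fasting in these levels was not tested.

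The 4 intracellular FGFs were all tested, and their log2 differences ran from -0.16 to 0.07. Fgf12 averaged 4.07 ± 0.06 in MS and 3.99 ± 0.09 in controls at its brightest probe (0.07), and the intron-spanning probe printed above gave -0.08. Fgf13, which is also known to bind microtubules, averaged 0.79 ± 0.14 in MS and 0.82 ± 0.29 in controls (-0.04), with its lowest level, 0.42, in control 8.4 and a difference of -0.17 without that animal. Fgf14, the member mutated in a hereditary ataxia, had 3 tested probes, which gave 0.03, 0.07 and 0.08. Fgf11 averaged -4.26 ± 0.18 in MS and -4.10 ± 0.20 in controls (-0.16). No interval of the 4 excluded 0.

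The 4 receptor kinases and Fgfrl1, which lacks the kinase domain, had log2 differences from -0.20 to 0.06, and their groups overlapped throughout. Fgfr1, a receptor of neurons and neural precursors, was at 3.04, 3.09, 2.90 and 3.32 in MS 5.3, 7.1, 7.2 and 7.6, against 3.03, 3.10, 3.37 and 3.25 in control 6.2, 8.2, 8.4 and 8.5. Control 8.4 was the highest animal and MS 7.2 the lowest. The difference was -0.10 (interval -0.36 to 0.16), and its other probes gave -0.02 and 0.12.

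Fgfr2, whose splice forms take ligands of the Fgf7 group or of other groups, was at -1.11, -1.23, -1.06 and -0.93 in MS 5.3, 7.1, 7.2 and 7.6, against -0.97, -0.94, -1.09 and -1.04 in control 6.2, 8.2, 8.4 and 8.5. The MS values enclosed all 4 control values. The difference was -0.07 (interval -0.27 to 0.12), and that of the second probe, which shares 42 bases with the first, was -0.08.

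Fgfr3, a receptor known from astrocytes, was at 3.74, 3.77, 3.70 and 3.80 in MS 5.3, 7.1, 7.2 and 7.6, against 3.92, 3.68, 3.69 and 3.62 in control 6.2, 8.2, 8.4 and 8.5. Control 6.2 lay above every MS mouse and the other 3 controls below every one. The difference was 0.02 (interval -0.17 to 0.22), and it became 0.09, with groups that did not overlap, without control 6.2. An intron-spanning second probe gave 0.27 (standard error 0.20), and control 6.2 was again the highest control there (-0.71, against -1.24 to -1.19).

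Fgfr4, a receptor prominent in liver and muscle, read below the array's 75th percentile in every animal, at -3.38, -2.62, -3.27 and -3.42 in MS 5.3, 7.1, 7.2 and 7.6, against -2.75, -3.46, -2.84 and -2.82 in control 6.2, 8.2, 8.4 and 8.5. One animal of each group lay with the other group, MS 7.1 high and control 8.2 low. The difference was -0.20 (interval -0.69 to 0.29), and a second probe gave 0.35 (standard error 0.35). That probe was well above background in 4 MS mice but only 3 controls, so it entered through the group where it was higher, which favours a positive difference. Fgfrl1 averaged 2.25 ± 0.07 in MS and 2.20 ± 0.06 in controls (0.06).

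Of the coreceptors, Klb, the partner of FGF receptors for Fgf15 and Fgf21, averaged -4.38 ± 0.30 in MS and -4.59 ± 0.34 in controls, a log2 difference of 0.22 (interval -0.23 to 0.67). Kl, klotho, the coreceptor for Fgf23 that the choroid plexus makes, averaged -3.12 ± 0.27 in MS and -3.12 ± 0.29 in controls (0.01). Its highest level was -2.73 in control 8.4, and its difference without that animal was 0.14. The score of 9 choroid plexus and ependymal markers was -0.12 to 0.01 in MS mice, 0.65 in control 8.4 and -0.18 to -0.15 in the other controls. These markers did not move as one in control 8.4, where Clic6 (-1.0, against at most -3.96 elsewhere), Ttr and Foxj1 were the highest of the 8 animals and Folr1 and Ccdc153 the lowest. The part of choroid plexus tissue in the Kl level was not tested. Of the binding proteins, which release FGFs from heparan sulfate, Fgfbp3 averaged -0.12 ± 0.07 in MS and -0.08 ± 0.07 in controls (-0.03). Fgfbp1 was not tested, being well above background in 3 MS mice and 3 controls, and ranged widely. It was at -7.22, -4.26, -4.66 and -1.44 in MS 5.3, 7.1, 7.2 and 7.6, against -4.33, -3.87, -3.86 and -6.13 in control 6.2, 8.2, 8.4 and 8.5. MS mice held both the highest and the lowest value.

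All 3 FLRT genes had a higher mean in MS, with intervals that included 0. Flrt2, a guidance molecule of migrating cortical neurons, was at 0.95, 0.87, 0.95 and 0.52 in MS 5.3, 7.1, 7.2 and 7.6, against 0.68, 0.86, 0.17 and 0.54 in control 6.2, 8.2, 8.4 and 8.5. Control 8.4 was by far the lowest, and MS 7.6 lay below 3 of the controls. The difference was 0.27 (interval -0.10 to 0.63), or 0.13 without control 8.4, and a second probe gave 0.29, again with control 8.4 lowest (-1.71). Flrt3, which takes part in the formation of glutamatergic synapses with latrophilins, averaged 2.17 ± 0.11 in MS and 2.07 ± 0.20 in controls (0.10). Control 8.4 was the lowest animal for Flrt3 as well, at 1.79, and the difference was 0.00 without it. Flrt1 averaged 2.88 ± 0.16 in MS and 2.79 ± 0.10 in controls (0.09), and its other probes gave -0.01 and 0.30.

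**Figure D3:**
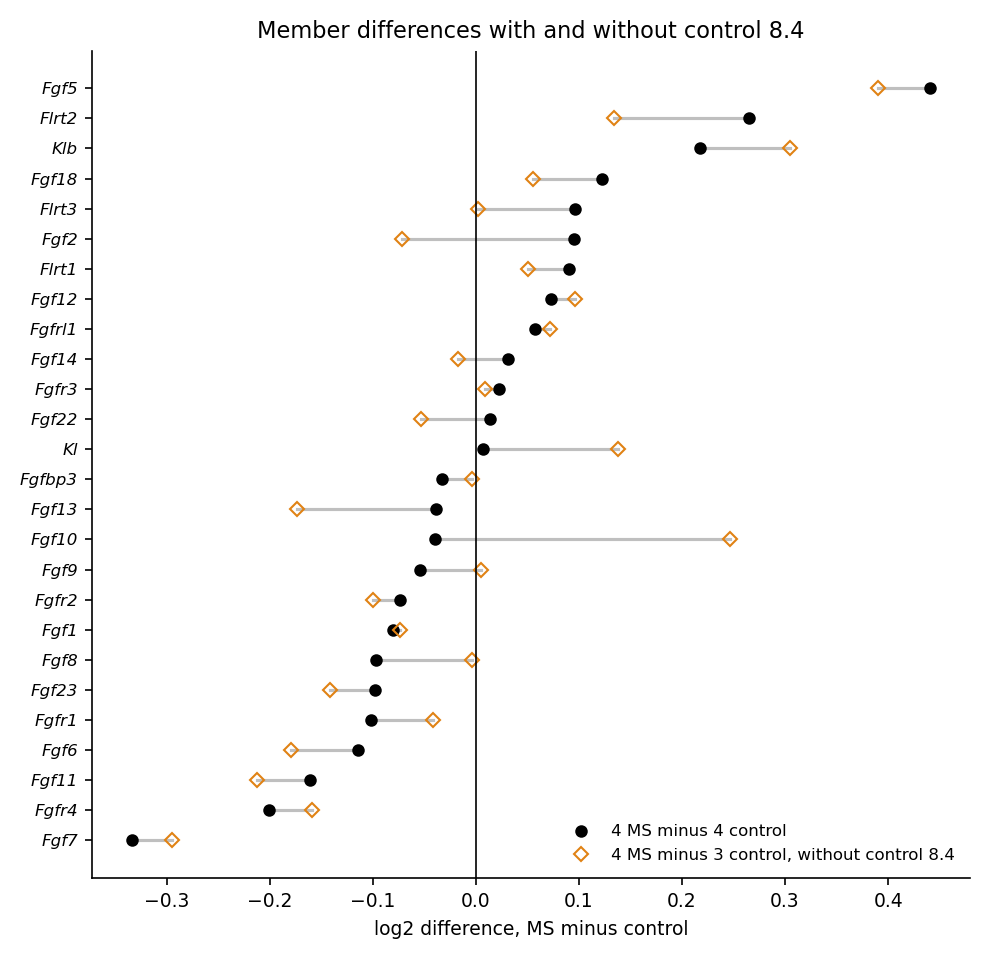
Log2 difference of each tested member (x axis, MS minus control) over all 8 animals (black points) and without control 8.4 (orange open diamonds), joined by grey lines. Fgf10 moves the furthest, to 0.25, and Flrt2 and Flrt3 move towards 0, while Fgf5 stays at 0.39.

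Probes of the same gene varied in sign. Of 13 members with several tested probes, 7 had differences of 1 sign at all of them (53.9%), as had 3902 of 6979 such genes over the whole array (55.9%). The 7 include Fgfr2 and Fgf18, whose probe pairs share 42 and 26 bases and so are not independent readings. The widest pairs were those of Fgfr4 and of Flrt1, whose differences spanned -0.20 to 0.35 and -0.01 to 0.30. The Fgfr4 pair rests on the probe that entered through MS alone, and with probes well above background on all 8 arrays the count was 7 of 12. Flrt2 and Fgf14 had the same sign at every tested probe.

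**Figure D4:**
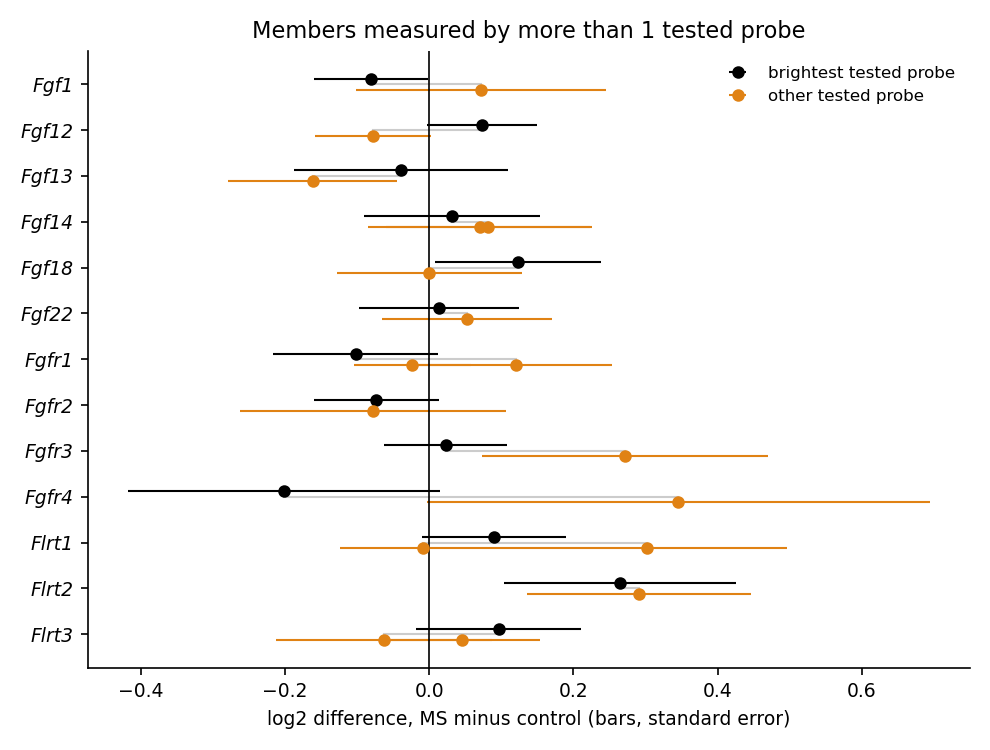
Log2 difference at each tested probe of the 13 members that have several on the x axis (MS minus control, n = 4 each), with black points for the brightest probe, orange points for the others and bars for the standard error. Most bars cross 0, and the Fgfr4 probes lie at -0.20 and, for the probe that entered through MS alone, 0.35.

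Other genes of the pathway were read in 4 lists, of which 75 genes were tested. None passed the adjusted threshold in limma, 3 had an unadjusted p under 0.05 (453 of all 23461 genes), and 38 were higher and 37 lower in MS, with a median log2 difference of 0.00. The groups lay apart for 0 of the 75 and for 1.33% of all genes. Feedback and target genes, which FGF signalling induces and many of which restrain it, were higher for 10 and lower for 5 of 15, with a median of 0.10. Spry2, an inhibitor of receptor kinase signalling, was at -2.74, -2.43, -2.55 and -2.55 in MS 5.3, 7.1, 7.2 and 7.6, against -3.04, -2.66, -3.41 and -2.99 in control 6.2, 8.2, 8.4 and 8.5. Only control 8.2 lay among the MS values. Its difference was 0.46 (standard error 0.15), or 0.33 without control 8.4. Dusp6, the phosphatase of ERK, gave 0.26 (0.13 without control 8.4), and Spred3, a relative of the sprouty proteins, 0.15 (0.08). On the lower side Etv4, an Ets transcription factor, gave -0.18, cyclin D1 (Ccnd1) -0.10 and Spry4 -0.09, and without control 8.4 these were -0.11, 0.02 and -0.21. Control 8.4 was the lowest animal for Spry2 and Dusp6, and its Ccnd1 level, 1.57, was the highest of the controls.

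Cytoplasmic signalling genes were higher for 12 and lower for 11 of 23, with a median of 0.00. The small GTPase Nras gave 0.17, the phosphatase Ptpn11 0.10 and the ERK kinase Map2k1 0.14. Frs3, an adaptor that docks on FGF receptors, gave the lowest value of all 4 lists, -0.63 (interval -1.30 to 0.03), with levels of -4.18, -3.41, -4.65 and -4.88 in MS 5.3, 7.1, 7.2 and 7.6, against -3.60, -3.90, -3.33 and -3.76 in control 6.2, 8.2, 8.4 and 8.5. MS 7.1 lay among the controls and the other 3 MS mice below them. The transcription factor Stat3 gave -0.11 and the phospholipase Plcg1 -0.05.

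Genes of heparan sulfate synthesis and its core proteins were higher for 13 and lower for 18 of 31, with a median of -0.03. The sulfotransferase Hs3st2 averaged 1.68 ± 0.07 in MS and 1.35 ± 0.29 in controls, a difference of 0.33 (interval 0.02 to 0.65) or 0.25 without control 8.4. The chain polymerase Ext2 gave 0.24 (0.14 without control 8.4) and the sulfotransferase Hs6st3 0.29, whereas Ndst2, which starts the sulfation of the chain, gave -0.18, the glypican Gpc3 -0.19 and the syndecan Sdc4 -0.15. Partners of the FLRT proteins were higher for 3 and lower for 3 of 6, with a median of 0.02. The latrophilin Lphn2 was at -3.10, -2.98, -3.34 and -2.19 in MS 5.3, 7.1, 7.2 and 7.6, against -3.39, -3.32, -4.20 and -3.80 in control 6.2, 8.2, 8.4 and 8.5. The groups met at MS 7.2 and control 8.2, and control 8.4 was the lowest animal. Its difference was 0.78 (interval 0.15 to 1.40), or 0.60 without control 8.4. Lphn1 and the netrin receptor Unc5a gave 0.09 and 0.09, and Unc5c, Unc5b and Lphn3 gave -0.09, -0.09 and -0.05. Without control 8.4, Lphn1 had 0.02, Unc5a 0.06, Unc5c -0.05, Unc5b 0.02 and Lphn3 -0.20.

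**Figure D5:**
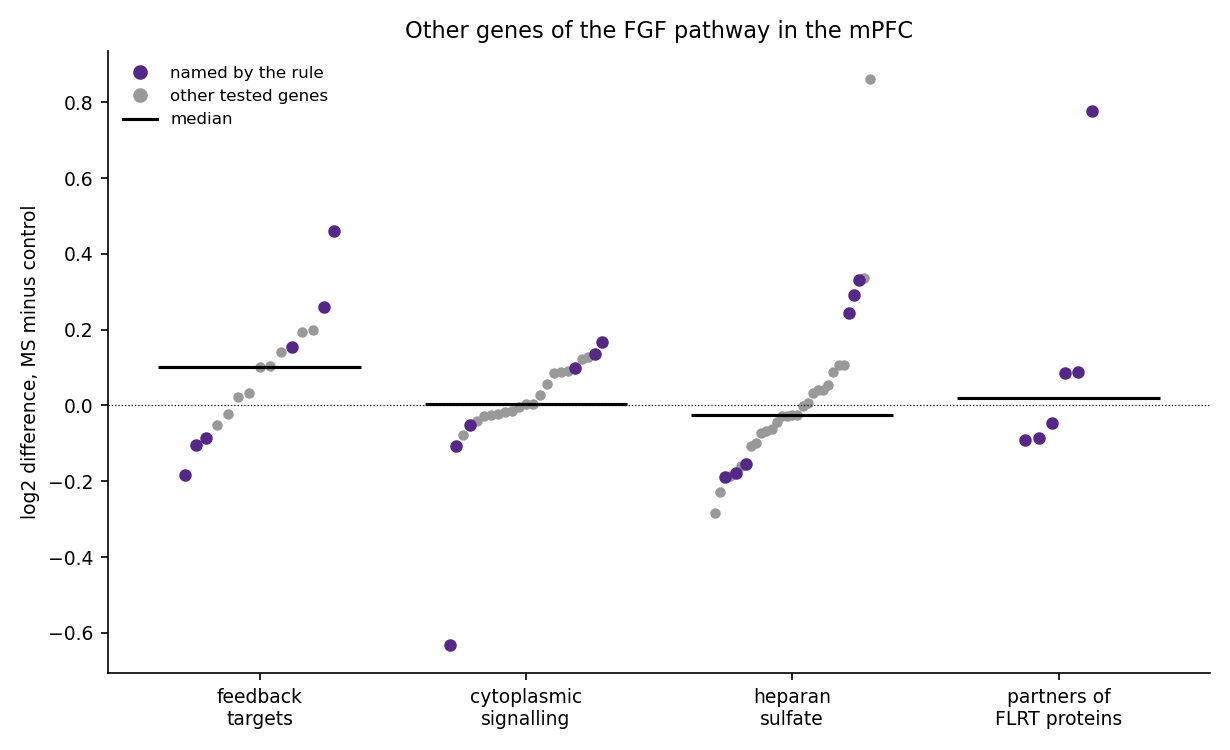
Log2 difference of the 75 tested genes of 4 pathway lists (y axis, MS minus control, 4 animals each), with 1 point per gene, purple for those named by the rule and grey for the rest, and bars for the list medians. The medians are 0.10, 0.00, -0.03 and 0.02 from left to right, and the points furthest from 0 are Sdc1 (0.86), Lphn2 (0.78) and Frs3 (-0.63).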

How the data were processed

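RNA of the mPFC of 4 MS and 4 control mice was analysed, with 1 array per animal and groups taken from the labels. Scanner files deposited by the authors hold intensity values per spot from Agilent Feature Extraction (10.10.1.1), which subtracted the background but did not normalise between arrays. A table of the series, also deposited, gives normalised log2 values made by the authors. Its columns each correlated with their own array at 0.9998 or more, and the medians were 8.532 or 8.533, so scale and centring were settled, and it served as an alternative. The headers give build mm9, 1 slide and 1 scan. Control spots and outlier spots were left out, and repeated spots were averaged on the log2 scale.

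The log2 signal minus the 75th percentile of the array was fitted in limma 3.58.1 (R 4.3.3, lmFit and eBayes, two-sided, Benjamini-Hochberg) over all 34095 probes well above background on all 4 arrays of a group, and the brightest probe stood for each gene. The study's methods name lmFit, this adjustment and no covariate. Of the 34095 probes, 0 passed (smallest adjusted p 0.9996) and 815 had an unadjusted p under 0.05. The number of arrays limits the precision. The p-values and intervals rest on the spread between these animals, which eBayes pulled, for each probe, towards the spread common to the tested probes. Several mice of a group share the number before the point in their label, which the labels do not explain, and if it marks a litter they are not fully independent. The slide row was read from the file names, and each row held both groups. The place of an array within its row was not examined.

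Members, gene lists and the rule for named genes were chosen with earlier results of these data known. The rule gives values per animal for members whose groups do not overlap, members that differ by at least 0.3 log2, the receptors and the 3 members of largest spread, and names up to 3 higher and 3 lower genes of each pathway list by unadjusted p. Per-animal values of Flrt2, Fgf15, Fgfbp1, Spry2, Frs3 and Lphn2 and those of the closing section were added after the values were seen. Of 58 member probes, 53 had an accession in the RefSeq gene table, each with the same symbol. One marker of the cortex list is not reported here and is left out of its score. Probe sequences came from the scanner files. The fit was tested on simulated data. Alternatives were normexp (offset 50), quantile normalisation, the median of common probes as scale, the authors' table, no filter and a filter on all 8 arrays, the mean over probes, the slide row as a block, the label number as a random block, and each animal left out in turn. Other software was data.table (version 1.17.8) and statmod 1.5.0, with Python 3.11.15 and matplotlib 3.10.9 for the figures.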

Additional observations from a re-analysis of the deposited data

Results flagged for a closer look

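Within groups of 4 animals, a value was marked when its gap to the nearest other animal took a larger share of the group's range than Dixon's 95% critical value, which chance passes in about 5% of groups. Of 146 groups examined, 11 were marked, 5 of them for control 8.4. Some of the groups were picked after their values were seen, those of Fgf15, Fgf17, the upstream Fgf8 probe and Ext1 among them. The counts can therefore not be set against that 5%. At the brightest tested probe of Fgfr4, control 8.2 was at -3.46 and the other controls between -2.84 and -2.75. At the second Fgfr3 probe, control 6.2 was at -0.71, above the other controls at -1.24 to -1.19, and at the second Fgfr2 probe control 8.4 was at -3.65, above -4.31 to -4.24. MS 7.1 stood above its group at the dimmest Flrt1 probe, at -0.93 against -1.60 to -1.51. Control 8.4 stood below its group at the second Flrt2 probe, at -1.71 against -1.07 to -0.97. Of the probes too near background to be tested, Fgf15 was at -6.51 in MS 7.6, below -5.37 to -5.21 in the other MS mice, and Fgf17 was at -4.03 in MS 7.6, above -6.27 to -5.99. The upstream Fgf8 probe was at -2.25 in control 8.4, above -8.06 to -7.40 in the other controls. Of the pathway genes, cyclin D1 was at 1.57 in control 8.4, above 1.04 to 1.09, the heparan sulfate polymerase Ext1 was at -0.69 in control 8.4, below 0.80 to 0.95, and Ndst2 was at 0.94 in control 6.2, just above the other controls at 0.81.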

How the results depend on the processing

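Over 17 alternatives the 26 member differences were recomputed 441 times, of which 5 moved by more than the SD between animals and 24 had the opposite sign. Some of the 441 repeated the main value by design. The filters and the balanced slide row did so for every member, and the mean over probes for members with 1 tested probe. For 15 members the sign was the same under every alternative. The 5 that moved were Fgf7 at -0.03 with normexp, Fgf7 at -0.11 and Fgf1 at -0.17 in the authors' table, and Fgf12 at -0.00 and Fgfr3 at 0.15 as means over probes. The cause was not tested. Fgf5 stayed between 0.38 and 0.51, with groups apart under all 17. Most of these could not have changed the separation. Groups that lie apart stay apart when an animal is left out. The filters, the block fits and the mean over probes (Fgf5 has 1 probe) used the same values for each animal. Only the other background correction, the other scales and the authors' table could have made the groups overlap. Members whose groups did not overlap numbered 1 to 3 when an animal was left out: Fgf12 joined Fgf5 without MS 5.3, Flrt1 and Flrt2 without MS 7.6, Fgfr3 without control 6.2 and Fgf7 (lower in MS) without control 8.2, where fewer animals make separation more frequent (2.38% to 6.31% of all genes, against 1.33% with all 8). In limma 0 probes passed under every alternative, with 413 to 3836 at an unadjusted p under 0.05, the highest with the label number as a random block, whose estimated correlation was -0.22. No paired analysis was possible because no animal number is shared between the groups. Dim probes, Fgf7, Fgf2, Fgfr4 and Klb among them, limit what can be read.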

Other observations

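Some values outside the comparisons were chosen after they were seen. MS 7.6 had the highest level of Sdc1, a syndecan of epithelia, at -1.03, against -5.25 to -4.24 in the other MS mice and -5.11 to -4.34 in controls, and also the highest level of Fgfbp1, at -1.44, against -7.22 to -4.26 in the other MS mice and -6.13 to -3.86 in controls. Fgf17 was highest in the same animal. Sdc1 had the largest log2 difference of the heparan sulfate list, 0.86 (standard error 0.80), and that animal set it. Ext1 had a difference of 0.34, which was -0.05 without control 8.4.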
